A study of Mus musculus with 13 samples.

Results

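The comparison set all 6 libraries from mice given a Setd7 virus against all 7 libraries from mice given a green fluorescent protein (GFP) virus, with adult social defeat as a covariate, and asked which genes differed between the viruses whatever the stress. All 13 libraries of the series entered. Of 26264 genes in the table, the 17755 that reached 10 normalized counts in at least 2 libraries were tested, and 8509 were dropped, 3670 of them at 0 throughout. The mice were C57BlJ/6 of both sexes, the virus was given in the ventral tegmental area (VTA) at postnatal day 14, and tissue punches were taken in adulthood. The GFP libraries were 3 without defeat (1 female, 2 male), called GFP control, and 4 after defeat (2 female, 2 male), called GFP defeat. The Setd7 libraries were 4 without defeat (2 female, 2 male), called Setd7 control, and 2 after defeat (1 female, 1 male), called Setd7 defeat. The virus type, its promoter and the cells it reached are not given in the sources used here, so every value is an average over transduced and untransduced tissue. The labels do not say that each library is 1 animal, and the number attached to Setd7 defeat replicate 1 differs between the labels and the table, so p-values measure the spread between these libraries.

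Setd7 is a lysine methyltransferase that can place a single methyl group on lysine 4 of histone H3, a modification found at enhancers. It also methylates proteins that are not histones, among them p53, the NF-kB subunit RelA and the Hippo pathway coactivator YAP. The VTA holds the midbrain dopamine neurons of the reward system beside GABA and glutamate neurons and glia, and a punch of it can take in neighbouring nuclei.

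Several libraries stood apart in what tissue they held, and those values belong beside each result that follows. Th, the enzyme that makes the dopamine precursor, was low in 3 GFP libraries: 3392 and 2508 normalized counts in control replicates 2 and 3 and 2539 in defeat replicate 1. The other GFP libraries held 9760 to 17550 and the Setd7 libraries 9801 to 19110. The thalamic transcription factor gene Tcf7l2 was high in 3 GFP libraries, with 9009 and 9559 in control replicates 2 and 3 and 6575 in defeat replicate 4. The remaining 10 libraries held 949 to 1869. So the libraries low in dopamine genes or high in thalamic ones were all GFP libraries. Setd7 control replicate 4 held 8725 counts of Cd74, the invariant chain of antigen presentation, where the GFP libraries held 49.97 to 207.9. Setd7 defeat replicate 1 had a mean of 10.1 (log2 scale) over meningeal fibroblast genes, against 7.01 to 8.14 in the others. The defining markers of the labelled tissue were present in every library. Reads assigned to genes ranged from 26.5 to 50.8 mega-reads per GFP library (median 35.6) and from 31.2 to 48.4 mega-reads per Setd7 library (median 34.5).

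Setd7 itself was higher in every Setd7 library than in every GFP library. With GFP it stood at 14538, 13480 and 13664 normalized counts in undefeated libraries, and at 10888, 14060, 12946 and 12799 in defeated ones. With Setd7 the values were 158680, 140240, 81302 and 28587 in undefeated libraries, with 92288 and 123130 in defeated ones. The GFP libraries lay close together while the Setd7 libraries spread from 2.17 to 12 times the GFP mean, the lowest being the male Setd7 control replicate 4. Its share of assigned reads was 0.0303 to 0.042% with GFP and 0.0787 to 0.43% with Setd7. The log2 fold change was 2.82 ± 0.31 (SE; 6 against 7 libraries) with adjusted p = 0.00279 by limma. At a like fold, the call was lost with robust fitting (adjusted p = 0.21 by limma), without the libraries low in Th (0.212) and without those high in Tcf7l2 (0.209). In an exact permutation test (two-sided) that reassigned the virus within each stress condition, 1 of 525 assignments gave as large a difference, p = 0.0019, the smallest this design can give. Whether a read came from the virus or from the mouse's own Setd7 gene cannot be told apart in gene-level counts. A predicted transcript, 5031434O11Rik, overlaps the gene, and whether counting used strand is not given in the sources used here.

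**Figure D1:**
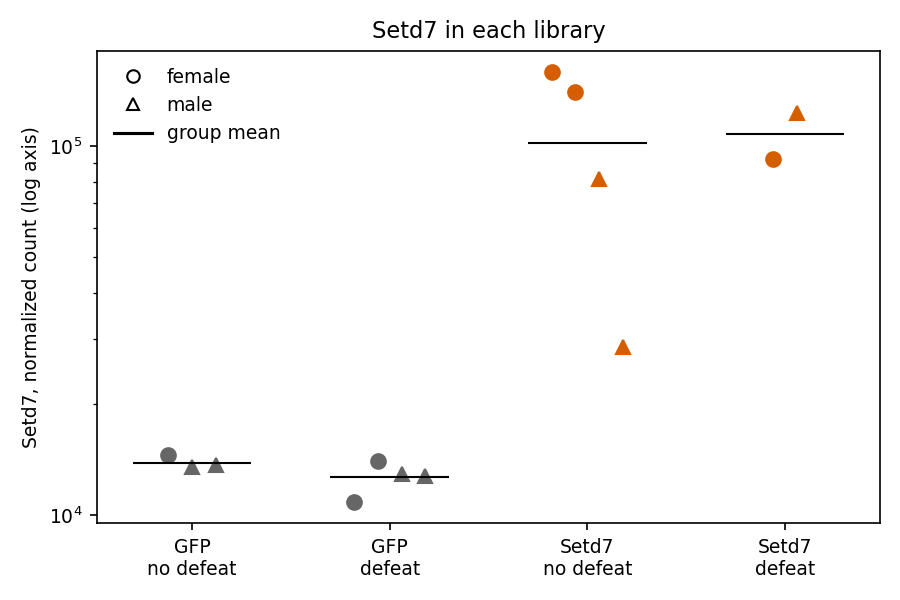
Normalized counts of Setd7 (log axis) in each of the 13 libraries, by virus and defeat; circles are female, triangles male, and bars are group means. The 6 Setd7 libraries lie between 28587 and 158680, all above the highest GFP library at 14538.

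Setd7 was the only gene of 17755 that passed an adjusted p of 0.05 by limma (0.00563% of genes tested), and edgeR on the recovered reads also called 1 gene. At an unadjusted p under 0.05 limma listed 1417 genes, 7.98% of those tested where 5% is the level set, with 747 higher (4.21%) and 670 lower (3.77%). The 7.98% became 3.42% without the 3 libraries low in Th and 3.79% with the mean of the dopamine neuron genes as covariate. Those fits have fewer libraries or 1 more term and so less power, and the part of this in the lower shares was not tested. The share was 4.71% in males only, and 6.09 to 10.5% with 1 library left out. DESeq2 on the recovered reads called 16 genes, 13 higher (0.0732%) and 3 lower (0.0169%). The second-ranked gene in limma, Adgra3, had adjusted p = 0.306. Differences lay above 0 in 51.2% of all genes and below 0 in 48.8%, and the median over all was 0.004 on the log2 scale. In a punch, fewer cells of a type and less RNA per cell cannot be told apart, which holds for every gene named here. Virus accounted for 8.82% of the variance over all tested genes, defeat for 7% and sex for 10.8%. A random split of the libraries also takes some share, which was not computed. These shares are therefore a description and by themselves show no effect of virus, defeat or sex. The first principal component held 14.2% of the variance, of which virus accounted for 20.2%, and the third (11.6%) followed sex, which accounted for 77.7% of it.

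Below Setd7, the 12 higher genes with the smallest unadjusted p were modest in size, with log2 differences of 0.22 to 0.44, and 0 of them passed the limma test. Adgra3, an adhesion G protein-coupled receptor, stood at 885.9, 1004 and 1174 normalized counts (lowest, median, highest) with GFP and at 1137, 1201 and 1295 with Setd7. Its difference was 0.31 ± 0.05, with adjusted p = 0.306 by limma, 0.263 by edgeR and 7.74e-04 by DESeq2. The ranges overlapped, with 3 of 6 Setd7 libraries above the highest GFP library. Alas1, the rate-limiting enzyme of heme synthesis, stood at 1299, 1352 and 1402 with GFP and at 1455, 1577 and 1710 with Setd7. Its groups did not overlap, and its difference was 0.22 ± 0.05 (adjusted p = 0.554 by limma, 0.038 by DESeq2). Gsg1l, an auxiliary subunit of AMPA-type glutamate receptors, stood at 1106, 1474 and 1591 with GFP and at 1694, 1850 and 2347 with Setd7, again without overlap. Its difference was 0.43 ± 0.09 (adjusted p = 0.554 by limma, 0.038 by DESeq2).

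The other higher genes included several with short transcripts and housekeeping roles. They were Rpl41 (0.34, a ribosomal protein), Tpt1 (0.27, the translationally controlled tumour protein), Uqcrh (0.35, a complex III subunit) and Park7 (0.26, DJ-1, which takes part in the response to oxidative stress). Bag2, a cochaperone of Hsp70, stood at 282.2, 349.7 and 406.2 with GFP and at 379.3, 449.3 and 515.7 with Setd7. Of the Setd7 libraries 4 were above the GFP range, and the difference was 0.44 ± 0.10, the widest of the 12. Phpt1 (0.30), a histidine phosphatase, Susd2 (0.36), Swi5 (0.32), a recombination repair factor, and Nde1 (0.27), a dynein regulator, complete the group. Rpl41, Tpt1 and Uqcrh have processed copies elsewhere in the genome and Phpt1 overlaps Ajm1, so their counts can be split or shared. All 12 stayed higher without the 3 libraries low in Th (0.19 to 0.40), and without Setd7 control replicate 4 and Setd7 defeat replicate 1 (0.20 to 0.49). The 12 were ranked on libraries that these fits mostly keep, so a kept sign follows in part from the ranking.

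The 12 lower genes spread further, from −0.20 to −4.14, and 0 passed the limma test. Epha1, an ephrin receptor that overlaps Zyx, stood at 39.51, 58.46 and 106.4 with GFP and at 24.62, 37.08 and 45.88 with Setd7. Its difference was −0.94 ± 0.20 (adjusted p = 0.554 by limma, 0.0408 by DESeq2), with 3 Setd7 libraries below the GFP range. Hnrnpa3, an RNA-binding splicing factor, stood at 4558, 4911 and 5188 with GFP and at 3961, 4350 and 4424 with Setd7. Its groups did not overlap, at −0.20 ± 0.04 (adjusted p = 0.554 by limma, 0.038 by DESeq2). Wnt9b, a secreted Wnt ligand that overlaps Wnt3 in the annotation, had the largest difference, −4.14 ± 0.91 (adjusted p = 0.554 by limma). With GFP its counts were 23.47, 286.3 and 63.55 in undefeated libraries and 23.16, 2.08, 7.05 and 97.76 in defeated ones. With Setd7 they were 1.09, 2.97, 29.13 and 0 in undefeated libraries and 0 in both defeated ones. The highest were the 3 libraries high in Tcf7l2, and without them the difference was −2.89.

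Of the remaining lower genes, Tmem41a (−0.44), Nsun7 (−0.47, a predicted RNA methyltransferase), Wdr90 (−0.57), Morn1 (−0.55) and Trhr2 (−0.74, a thyrotropin-releasing hormone receptor) had means between 137 and 406 in the GFP libraries. Nfrkb (−0.23), a subunit of the INO80 chromatin remodeller, stood at 981.4, 1003 and 1082 with GFP and at 772.3, 889.8 and 1002 with Setd7. Synj2 (−0.33), a phosphoinositide phosphatase, had 5 of 6 Setd7 libraries below the lowest GFP library. Srrm4os (−0.99) and Pisd-ps1 (−0.31) overlap Srrm4 and Sfi1, and Nsun7 and Morn1 overlap Apbb2 and Rer1, so these counts are uncertain. All 12 stayed lower without the libraries low in Th. Their median then moved from −0.51 to −0.39, and 9 of 12 kept a value within 1.5 times. These 12 were also ranked on libraries that this fit mostly keeps, so a kept sign follows in part from the ranking. DESeq2 alone called 3 further genes that the limma ranking did not name. Bsg (0.19), which encodes basigin, held 10575 to 13334 counts with Setd7 and 9987 to 11313 with GFP. The potassium channel gene Kcnh3 (−1.53) moved to −0.77 without the 3 libraries low in Th. Prg4, which encodes lubricin, stood at 449.3 in Setd7 defeat replicate 1 and at 33.85 to 52.68 in the other Setd7 libraries, and its difference moved from 1.44 to 0.77 without that library.

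**Figure D2:**
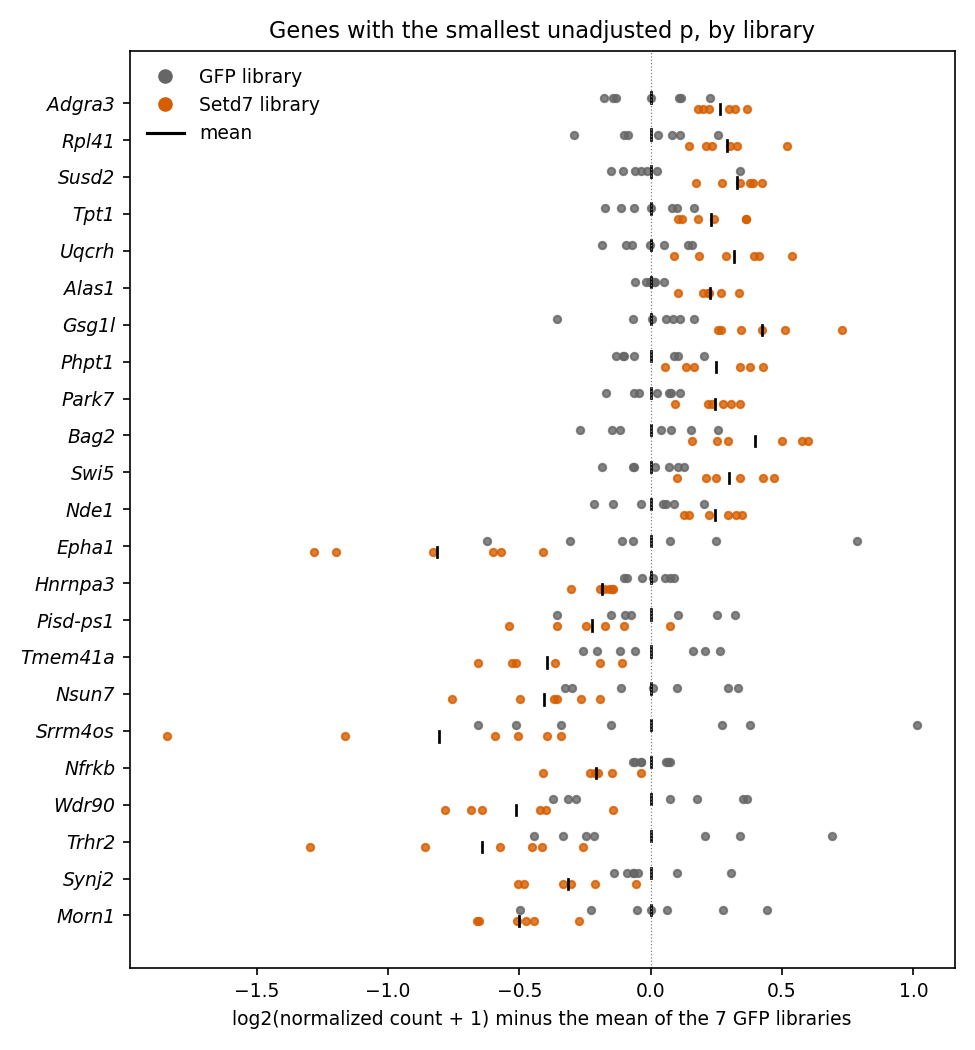
Each library's log2(normalized count + 1) minus the mean of the 7 GFP libraries (horizontal axis) for the 12 higher and 11 of the 12 lower genes, Wnt9b being left out for its range; grey points are GFP libraries, orange points Setd7 libraries and black ticks means. The 12 higher genes have differences of 0.22 to 0.44 and overlapping ranges except for Alas1 and Gsg1l; among the lower genes shown, Hnrnpa3 has no overlap.

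The groups did not overlap in 24 genes, with all Setd7 libraries on top in 11 (0.062% of genes tested) and all GFP libraries on top in 13 (0.0732%). Of these, 10 and 8 had a mean of at least 30 normalized counts and a gene name that the naming rule allows. Besides Setd7, Alas1 and Gsg1l, the higher ones were Glipr2, Pgd, Stox1, Ndufa5, Abhd3, Lrrc8a and Mdm2. Pgd, an enzyme of the pentose phosphate pathway, stood at 1109 to 1381 with GFP and 1398 to 1549 with Setd7. Ndufa5, a complex I subunit, stood at 220.8 to 268.6 and 273.8 to 472.5. Lrrc8a, the obligatory subunit of volume-regulated anion channels, stood at 7275 to 8680 and 8684 to 9073, a separation of the groups by few counts. Mdm2, the ubiquitin ligase that degrades p53, stood at 1311 to 1474 and 1496 to 1737, with a difference of 0.12 ± 0.05. The lower ones besides Hnrnpa3 were Fibcd1, Zfp106, Gga3, Armc7, Vezt, Cand1 and Cep63. Fibcd1, a chitin-binding receptor, stood at 356 to 541.8 with GFP and 277.8 to 352.9 with Setd7, and the RNA-binding protein gene Zfp106 at 17502 to 19120 and 14809 to 17233. Cand1, an exchange factor of cullin ubiquitin ligases, stood at 11390 to 12561 and 10363 to 11366. Gga3 and Armc7 overlap Mrps7 and Nt5c, and Cep63 overlaps Anapc13. None of these except Setd7 passed the limma test. With the libraries in random order some genes would separate as well. How many was not computed, so the counts and names are a description and do not set these genes apart from chance.

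The libraries without defeat and after defeat share no sample, so the effect of the virus could be set out in each. Setd7 differed by 2.61 without defeat and by 3.08 after defeat, and the interaction had an unadjusted p of 0.468 by limma (adjusted p = 0.970). Across the 17755 genes the 2 sets of differences had Pearson's r = 0.139 and Spearman's rho = 0.121, a description across genes that share libraries within each set. The sign was the same in 54.3% of all genes. Of the 1332 genes at an unadjusted p under 0.05 without defeat (7.5%), 60.7% had the same sign after defeat, where their median size was 0.13 against 0.38 without. Of the 913 such genes after defeat (5.14%), 64.1% had the same sign without defeat. Both lists held 59 genes with the same sign (37 higher, 22 lower), 4.43% of the first and 6.46% of the second. The 7.5 and 5.14% above count both signs, and the overlap of unrelated lists was not computed. The correlation was −0.00408 without the 3 libraries low in Th.

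The named genes were ranked or picked on both sets together, which favours genes alike in both, so their 2 values are given as a description. Alas1 differed by 0.21 without defeat and 0.23 after it, Gsg1l by 0.45 and 0.40, Hnrnpa3 by −0.20 and −0.20, and Mdm2 by 0.12 and 0.12. Wdr90 differed by −0.86 and −0.19, with an unadjusted interaction p of 0.017 by limma (adjusted p = 0.954). Th differed by 1.55 and 0.44, and the cortical and thalamic vesicular glutamate transporter gene Slc17a7 by −3.44 and −0.66. For Th, 2 of the 3 low GFP libraries were without defeat. The interaction with defeat called 0 genes by limma, edgeR and DESeq2, with 858 (4.83%), 878 and 935 genes at an unadjusted p under 0.05. The interaction with sex also called 0 by each, with 529 (2.98%), 555 and 607 such genes. Without Setd7 defeat replicate 2, the other defeated library with Setd7 stood alone and limma called 14 genes for the interaction with defeat, among them the fibroblast and matrix genes Aebp1, Col6a2, Fn1, Islr, Ogn and Prg4; that lone library is assumed to vary like the other groups. Fitted alone, the defeated libraries called 3 genes by limma, namely Setd7, Cd74 (2.57, adjusted p = 0.0152) and B2m (0.93, adjusted p = 0.0495). Both Cd74 and B2m belong to antigen presentation.

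**Figure D3:**
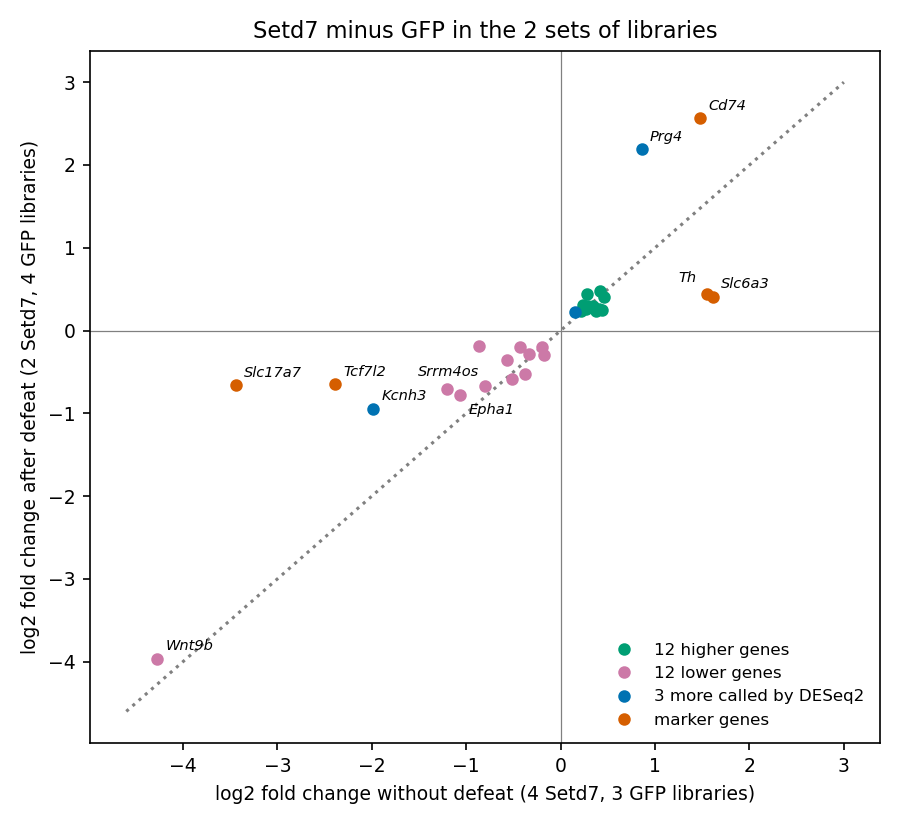
Log2 fold change of Setd7 against GFP without defeat (horizontal, 4 against 3 libraries) and after defeat (vertical, 2 against 4) for the named genes, with a dotted line of equality. Both groups of 12 were ranked on the 2 sets together, which favours genes near the line; Wdr90 (−0.86 and −0.19) and Srrm4os (−1.21 and −0.70) lie off it, and Th (1.55 and 0.44), Slc6a3, Tcf7l2 and Slc17a7 lie nearer to 0 after defeat.

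The lists of genes closest to what Setd7 is known to do showed at most 3 members each at an unadjusted p under 0.05, and 0 members of any of the 33 lists were called. Of 21 measured proteins that Setd7 methylates, 13 were higher, with a median of 0.02, where 51.2% of all genes were higher. Only Fxr1, an RNA-binding protein of the fragile X family, was under an unadjusted p of 0.05 (0.13 ± 0.05, adjusted p = 0.590 by limma), against 4.21% of all genes in that direction. Trp53, which encodes p53, differed by −0.07 ± 0.11, and Foxo3, a forkhead transcription factor, by −0.07 ± 0.06. Of 20 p53 targets 15 were higher, median 0.04, and 3 were under 0.05 in that direction (51.2 and 4.21% of all genes). They were Mdm2 (0.12), the apoptosis effector gene Perp (0.46 ± 0.18) and the cell cycle inhibitor gene Cdkn1a (0.34 ± 0.14). Perp stood at 108.3 to 159.1 with GFP and 147.4 to 352 with Setd7, and its difference was 0.20 without Setd7 defeat replicate 1. Cdkn1a differed by 0.57 without defeat and 0.04 after it.

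Hippo pathway genes and YAP targets numbered 19, of which 12 were higher (median 0.05). Ccn2, a secreted matrix protein and YAP target, was the 1 member under 0.05, at 145.4, 198.5 and 261 counts with GFP and 205.9, 244.3 and 592.7 with Setd7 (0.64 ± 0.20, adjusted p = 0.567 by limma). Its ranges overlapped, with 3 Setd7 libraries above the GFP range, and the difference was 0.40 without Setd7 defeat replicate 1. Among 22 H3K4 methyltransferases and partners 9 were higher and 13 lower, with 1 under 0.05 in each direction (4.21 and 3.77% of all genes). Dpy30, a core subunit of the methyltransferase complexes, differed by 0.22 ± 0.10 and the methyltransferase gene Kmt2b by −0.16 ± 0.07 (−0.11 without GFP control replicate 2). Of 11 H3K4 demethylase genes and their partners 7 were higher and 4 lower, with a median of 0.03, and 0 were under 0.05. Among the lower ones were Kdm5a at −0.10 ± 0.05 and Kdm5b at −0.11 ± 0.05. Of 35 other chromatin regulators 25 were lower, but between −0.15 and 0.13. The DNA demethylase gene Tet3 (−0.12) and the deacetylase gene Hdac5 (−0.10) were under 0.05 in the lower direction and Hdac11 (0.13) in the higher, against 3.77 and 4.21% of all genes.

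Dopamine neuron genes lay higher, and thalamic and excitatory neuron genes lower, in the Setd7 libraries than in the GFP libraries, 0 of them called. Of 28 dopamine neuron genes 26 were higher (51.2% of all genes), 17 of them at an unadjusted p under 0.05 (4.21% of all genes), with a median of 0.60. Th differed by 1.06 ± 0.42 (adjusted p = 0.592 by limma) and the dopamine transporter gene Slc6a3 by 1.08 ± 0.45 (adjusted p = 0.605). Without the 3 GFP libraries low in Th, 13 of the 28 were higher, 1 was under 0.05 and the median was −0.01. Th then differed by 0.07 and Slc6a3 by 0.05; those libraries were left out for their low Th, so a value nearer to 0 follows from that choice. Without the 3 GFP libraries high in Tcf7l2 instead, 27 of the 28 were higher, 3 under 0.05, with a median of 0.285. Of 12 thalamic genes all were lower, 3 under 0.05 (3.77% of all genes), with a median of −0.44. Without the 3 GFP libraries high in Tcf7l2, 7 of 12 were higher and the median was 0.02, again with the libraries chosen by a member of the list. Gbx2, a thalamic homeobox gene, stood at 18.26 to 656.1 with GFP and 0 to 26.51 with Setd7. Of 15 excitatory neuron genes 12 were lower, 6 under 0.05, with a median of −0.23 that was −0.03 without the libraries low in Th. Slc17a7 differed by −2.22 ± 0.72 with all libraries and by −0.48 without those 3. Of 18 GABA neuron genes 12 were higher, 0 under 0.05, with a median of 0.02.

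Immune and fibroblast lists had medians above 0, few members at an unadjusted p under 0.05 and 0 called. The share of all genes under 0.05 in the higher direction was 4.21%. Of 29 interferon and antigen presentation genes 27 were higher (2 under 0.05, median 0.51), of 20 microglial genes all (1 under 0.05, median 0.31), of 16 meningeal fibroblast genes all (0 under 0.05, median 0.50) and of 15 NF-kB targets all (1 under 0.05, median 0.30). Without Setd7 control replicate 4 and Setd7 defeat replicate 1, the medians were −0.01, 0.06, −0.06 and 0.06; the libraries were chosen for their high immune or fibroblast values. B2m, the light chain of class I molecules, stood at 1918, 2182 and 2967 with GFP and 1975, 3720 and 16638 with Setd7 (0.86 ± 0.37). Without Setd7 control replicate 4 it differed by 0.50, and Cd74 by 1.12 in place of 1.95 ± 0.90. Cd74 stood at 8725 in Setd7 control replicate 4, 901.7 and 622.6 in the Setd7 defeat libraries and 70.97 to 114.3 in the other Setd7 libraries. Of the Setd7 libraries, the one with the most Cd74 held the least Setd7 (28587 counts), which was still above every GFP library. The NF-kB target Icam1, an adhesion molecule, differed by 0.74 ± 0.32 (0.30 without both libraries), and Nfkbia, the inhibitor of NF-kB, by 0.21 ± 0.11. Of 5 measured blood and T cell genes all were higher, with a mean level of 6.62 (log2 scale) in Setd7 control replicate 4 and 2.51 to 4.15 in the others. The part of other cells in these differences was not tested. Of 20 reactive glia genes 17 were higher, 4 under 0.05, with a median of 0.30, among them Apoe, a lipid carrier, at 23008 to 30491 with GFP and 25750 to 33797 with Setd7 (0.27 ± 0.08, adjusted p = 0.567 by limma).

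**Figure D4:**
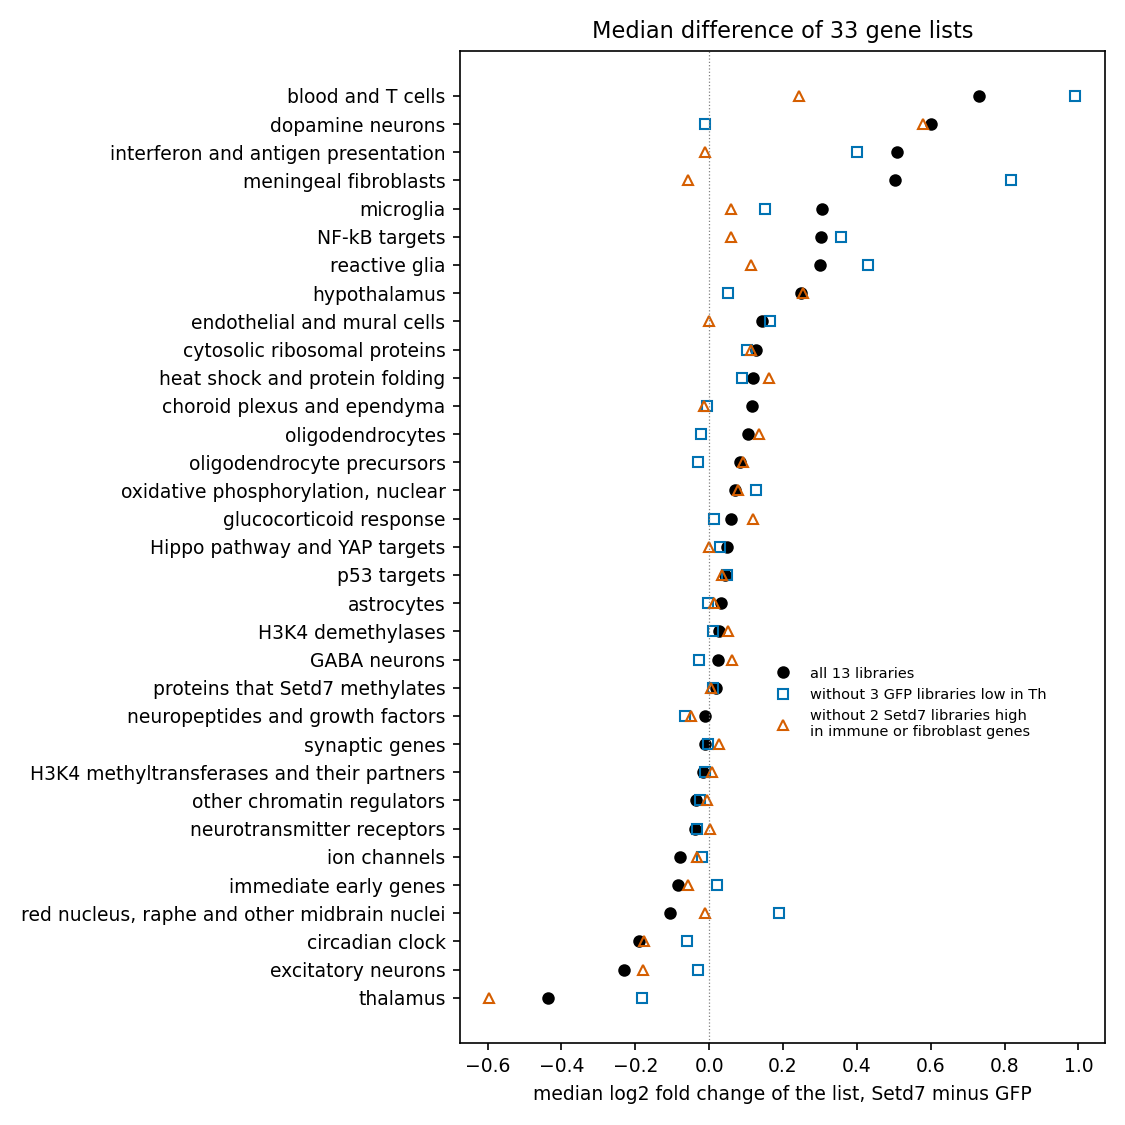
Median log2 fold change (Setd7 minus GFP, horizontal) of each of the 33 lists with all 13 libraries (black), without the 3 GFP libraries low in Th (blue squares) and without Setd7 control replicate 4 and Setd7 defeat replicate 1 (orange triangles). The dopamine list moves from 0.60 to −0.01 without the first set and the interferon list from 0.51 to −0.01 without the second, while heat shock and ribosomal lists stay between 0.09 and 0.16.

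Heat shock genes and circadian clock genes each lay almost all on 1 side. On the list of 24 heat shock and folding genes, 21 were higher and 10 were under an unadjusted p of 0.05, where 51.2% of all genes were higher and 4.21% were under 0.05 in that direction. The median of the list was 0.12, with 0.17 without defeat and 0.05 after it. It was 0.09 with 7 under 0.05 without the libraries low in Th, and 0.16 with 12 under 0.05 without the 2 Setd7 libraries high in immune or fibroblast genes, and 0.09 with 5 under 0.05 with the dopamine list's mean as covariate. Hspe1, the mitochondrial cochaperonin, stood at 485.1, 581.2 and 667.7 with GFP and 633.3, 694.9 and 753.9 with Setd7, with 5 Setd7 libraries above the GFP range. Its difference was 0.31 ± 0.08 (adjusted p = 0.567 by limma). Hspa8, the constitutive Hsp70 of the cytosol, differed by 0.25 ± 0.08 and the stress-induced Hspa1a by 0.49 ± 0.17. Hspa1a stood at 388.6 to 1102 with GFP and 591.3 to 1055 with Setd7, so its ranges overlapped in full. Hspa1a and Hspa1b are near-identical copies and their counts are uncertain.

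All 20 measured clock genes were lower (48.8% of all genes), 7 under an unadjusted p of 0.05 (3.77% of all genes), with a median of −0.19. Nr1d1, the repressor REV-ERBalpha, stood at 1430, 1683 and 2143 with GFP and 1288, 1407 and 1698 with Setd7 (−0.28 ± 0.09, adjusted p = 0.567 by limma). Dbp, a transcription factor driven by the clock, stood at 983.3 to 1340 and 828.97 to 1154 (−0.27 ± 0.09), and the period gene Per3 at 1662 to 2007 and 1450 to 1921 (−0.21 ± 0.07). Per1 differed by −0.22 ± 0.10 and Ciart, a clock repressor, by −0.25 ± 0.12. Of the 20, 17 were lower with a median of −0.06 and 0 under 0.05 without the libraries low in Th, and 15 with a median of −0.04 and 0 under 0.05 without those high in Tcf7l2. Without the latter Nr1d1 differed by −0.15, Dbp by −0.17 and Per1 by −0.03. Without the 2 Setd7 libraries high in immune or fibroblast genes, 19 were lower with a median of −0.18. The clock list also holds Rora and Rorb, which are on the thalamic and excitatory lists.

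Clock proteins bind the E-box CACGTG, and heat shock factors bind inverted repeats of GAA, here searched as GAANNTTC and TTCNNGAA. Each motif reads the same on both strands, and the windows were the 250 bases before the start of the gene in RefSeq (GRCm38.p6). CACGTG was found in 9.11% of 13785 promoters of tested genes and in 5 of 17 clock promoters (Per1, Cry1, Tef, Bhlhe41 and Ciart). GAANNTTC was found in 6.25% of all and in 7 of 19 heat shock promoters, and TTCNNGAA in 7.09% and 5 of 19. The windows of Hspe1 and Hspd1 are opposite strands of an overlapping stretch, so both tallies count 1 cluster of matches for 2 genes, and the first also counts the near-identical Hspa1a and Hspa1b. A match describes letters and no binding. The windows of 2 members of each list are shown because they carry these motifs, in capitals, upstream of genes described above. They are Per1 at chr11:69098699-69098948 (plus strand), Ciart at chr3:95882229-95882478 (minus strand), Hspe1 at chr1:55087898-55088147 (plus strand) and Hspa1a at chr17:34972157-34972406 (minus strand), each written 5′ to 3′ along its gene. In Hspe1 overlapping matches of both forms run together.
Per1: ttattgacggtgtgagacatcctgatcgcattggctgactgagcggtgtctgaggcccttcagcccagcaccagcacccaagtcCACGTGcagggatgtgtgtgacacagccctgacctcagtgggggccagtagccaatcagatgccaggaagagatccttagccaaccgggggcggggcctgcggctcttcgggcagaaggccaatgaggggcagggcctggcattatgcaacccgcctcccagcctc
Ciart: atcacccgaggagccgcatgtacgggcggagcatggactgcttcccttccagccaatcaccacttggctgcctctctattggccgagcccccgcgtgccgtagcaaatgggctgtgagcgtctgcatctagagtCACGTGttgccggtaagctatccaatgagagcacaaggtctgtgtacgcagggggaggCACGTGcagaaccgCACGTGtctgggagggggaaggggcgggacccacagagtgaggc
Hspe1: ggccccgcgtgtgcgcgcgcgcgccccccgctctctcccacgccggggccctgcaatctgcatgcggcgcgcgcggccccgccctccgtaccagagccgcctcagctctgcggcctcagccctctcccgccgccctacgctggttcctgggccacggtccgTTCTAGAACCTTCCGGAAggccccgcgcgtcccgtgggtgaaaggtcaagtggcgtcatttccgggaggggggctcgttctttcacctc
Hspa1a: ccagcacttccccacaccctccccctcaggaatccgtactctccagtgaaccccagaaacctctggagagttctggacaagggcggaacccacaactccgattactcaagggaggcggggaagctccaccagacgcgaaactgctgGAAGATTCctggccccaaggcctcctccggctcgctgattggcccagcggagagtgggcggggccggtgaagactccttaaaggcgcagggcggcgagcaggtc

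Genes of protein synthesis and respiration were mostly higher with Setd7 by small amounts. Of 43 cytosolic ribosomal protein genes 37 were higher and 14 were under an unadjusted p of 0.05 (51.2 and 4.21% of all genes), with a median of 0.13, and 0 were under 0.05 in the lower direction. Rps6, a protein of the small subunit, stood at 1231, 1396 and 1608 with GFP and 1446, 1587 and 1877 with Setd7 (0.27 ± 0.07, adjusted p = 0.567 by limma). Rplp1, of the ribosomal stalk, differed by 0.38 ± 0.11. Many of these genes have processed copies, so reads can be lost or shared. Of 36 nuclear genes of oxidative phosphorylation 33 were higher, 6 under 0.05, with a median of 0.07. The complex I genes Ndufa1 and Ndufa5 differed by 0.37 ± 0.10 and 0.45 ± 0.14. Without the libraries low in Th the counts higher were 36 of 43 and 34 of 36, and without the 2 Setd7 libraries 35 and 34. The medians were 0.20 and 0.11 without defeat and 0.05 and 0.02 after it, and this difference was not tested over the list. Without GFP control replicate 1 they were 0.07 and 0.02. The oxidative phosphorylation median was 0.18 in females and −0.002 in males.

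The members of these 2 lists have short transcripts, with medians of 1106 and 1404 bases, and the direction of the difference followed transcript length over all genes. Genes were divided into 5 groups of equal size by their longest transcript in GENCODE M21, matched by symbol (96.5% of those tested), among those with a mean of at least 30 normalized counts. From the shortest group to the longest, 63.6, 58.1, 53.1, 51.1 and 40.1% of genes were higher with Setd7. In the shortest group 243 genes were under an unadjusted p of 0.05 in the higher direction and 44 in the lower; in the longest group the numbers were 67 and 162. The sizes were small, with medians of 0.05 in the shortest and −0.02 in the longest group. Without defeat these medians were 0.07 and −0.03, and after it 0.01 and −0.01. Without the libraries low in Th the shares in the shortest and longest groups were 63.4 and 40.3%, and without the 2 Setd7 libraries 59.9 and 47.2%. Per library, the mean log2 level of the shortest group minus that of the longest was −2.78 to −2.65 with GFP and −2.72 to −2.60 with Setd7, so the viruses overlapped. Of the 12 higher named genes 6 were in the shortest group and 0 in the longest; of the 12 lower, 3 and 3. RNA integrity was not given in the sources used here, and its part in this was not tested.

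**Figure D5:**
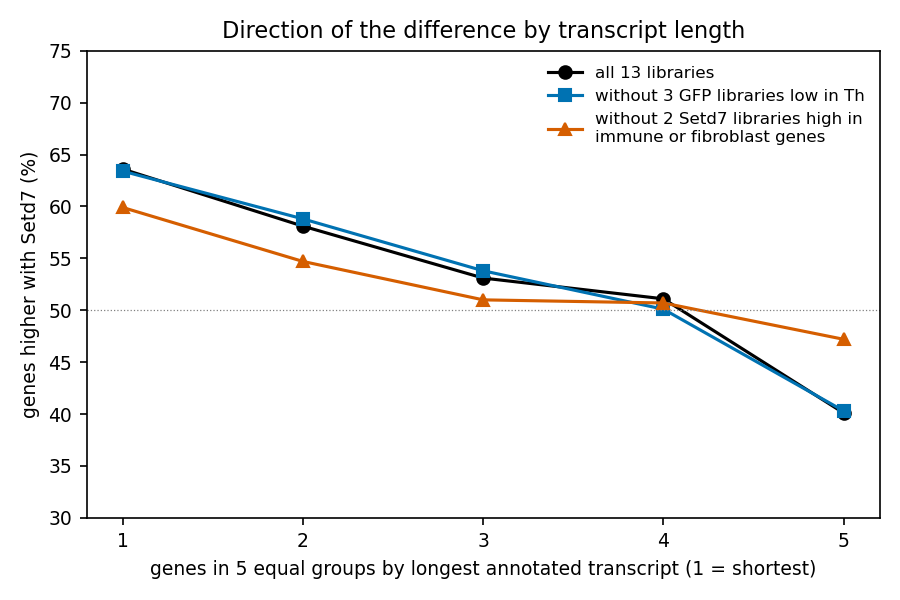
Share of genes higher with Setd7 (vertical, percent) in 5 equal groups of genes by longest annotated transcript (horizontal, shortest first), with all libraries (black), without the 3 GFP libraries low in Th (blue) and without Setd7 control replicate 4 and Setd7 defeat replicate 1 (orange). With all libraries the share runs from 63.6% in the shortest group to 40.1% in the longest.

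Genes of neuronal signalling, which have long transcripts, lay lower in part. Of 30 ion channel genes 25 were lower, 5 under an unadjusted p of 0.05 (48.8 and 3.77% of all genes), with a median of −0.08, and 20 of the 30 were in the group with the longest transcripts. Kcnd2, an A-type potassium channel, stood at 4040, 4424 and 5737 with GFP and 3532, 3904 and 4226 with Setd7 (−0.23 ± 0.08, adjusted p = 0.567 by limma). Kcnj9, a G protein-gated potassium channel, had 5 of 6 Setd7 libraries below the GFP range (−0.45 ± 0.17). Without GFP control replicate 2 alone, Kcnd2 differed by −0.15 and Kcnj9 by −0.28. Without the libraries low in Th, Kcnj9 differed by −0.13, and 20 of the 30 genes were lower, 0 under 0.05. Of 29 neurotransmitter receptor genes 18 were lower, with the glutamate receptor genes Grm5 (−0.14), Grm7 (−0.20) and Gria2 (−0.15) under 0.05. Oprk1, the kappa opioid receptor, differed by 0.52 ± 0.24, by 0.34 without GFP control replicate 3 and by −0.03 without the libraries low in Th. Of 30 synaptic genes 17 were lower, with 1 under 0.05, the postsynaptic scaffold gene Shank1 (−0.22 ± 0.08). Of 19 immediate early genes 12 were lower, with 1 under 0.05, Egr3 (−0.74 ± 0.34), which stood at 70.48 to 409.3 with GFP and 65.19 to 101.4 with Setd7. Egr3 differed by −0.39 without GFP control replicate 3 and by −0.17 without the libraries low in Th.

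The other lists had medians between −0.11 and 0.25 and at most 2 members per direction at an unadjusted p under 0.05. Of all genes 51.2% were higher, with 4.21% under 0.05 in the higher direction and 3.77% in the lower. Of 20 oligodendrocyte genes 19 were higher, with a median of 0.10, and the myelin gene Mobp stood at 40935 to 61398 with GFP and 52343 to 65395 with Setd7 (0.22 ± 0.09). Without the libraries low in Th the median of this list was −0.02. Of 20 astrocyte genes 15 were higher (median 0.03), of 14 oligodendrocyte precursor genes 11 (median 0.08) and of 21 endothelial and mural cell genes 18 (median 0.14). The endothelial surface gene Ly6c1 stood at 920.9 to 1144 with GFP and 1035 to 1250 with Setd7 (0.19 ± 0.06, adjusted p = 0.567 by limma). Of 17 genes of the glucocorticoid response, which adult defeat is known to engage, 13 were higher (median 0.06). Its members under 0.05 were Cdkn1a, the pyruvate dehydrogenase kinase gene Pdk4 (0.22 ± 0.10) and, in the lower direction, Per1. Hypothalamic genes (9 of 12 higher, median 0.25), choroid plexus and ependyma genes (9 of 14, median 0.12), genes of the red nucleus, raphe and other midbrain nuclei (6 of 13, median −0.11) and neuropeptides and growth factors (10 of 22, median −0.01) had 0 members under 0.05 in either direction. The hypothalamic median was 0.04 without GFP control replicate 3 and −0.22 after defeat, and that of the midbrain nuclei 0.28 without GFP control replicate 1. Over the 33 lists, 25 listed genes did not enter the test, 10 of them on the blood and T cell list.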

How the data were processed

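Per the labels, RNeasy Micro kits gave total RNA from VTA punches, and the TruSeq RiboZero kit gave the libraries. The submitters' processing notes name Bowtie2, GRCm39, featureCounts and DESeq2, without versions. For the 13 libraries, the authors deposited signal values, which are counts divided by size factors. Values within a library are multiples of 1 step, so whole reads were recovered (all 341432 values, 100%, within 0.01 of a whole read). Libraries of a group correlated at 0.971 to 0.984 and differed beyond sampling noise.

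Differences were tested on log2(normalized count + 1) in R 4.3.3 by limma-trend (version 3.58.1) with terms for virus and defeat, two-sided, Benjamini-Hochberg adjusted over 17755 genes, threshold 0.05. Fold changes are on that scale and understate low genes. edgeR 4.0.16 (quasi-likelihood) and DESeq2 1.42.0 were run on the recovered reads, and DESeq2 gave no adjusted p for 456 genes. The script was tested on simulated data. Named were Setd7, the 12 genes per direction with the smallest unadjusted p, genes called by a count test, up to 4 members per list with the smallest p and 5 marker genes. A mean of 30 counts was required, and predicted, RIKEN, Xist, Tsix and Y genes were left out. Other genes named with values were chosen after these were seen. The comparison, the lists and the rule were chosen with earlier results of these data known. Lists are described by counts, with no test. Promoter sequences and gene overlaps are RefSeq's (GRCm38.p6), matched by symbol. No coordinates of the deposited build were used.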

Additional observations from a re-analysis of the deposited data

Results flagged for a closer look

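In 7 of 132 checks (5.3%), a single library lay far, on the log2 scale, from the others given the same virus; chance flags about 1 in 20. Prg4 stood at 449.3 normalized counts in Setd7 defeat replicate 1 and at 33.85 to 52.68 in the other Setd7 libraries. The same library had a mean of 10.1 over meningeal fibroblast genes (log2 scale, others with Setd7 7.04 to 8.14), and 3961 counts of Hnrnpa3 where the others with Setd7 had 4274 to 4424. Slc6a3 stood at 45560 in Setd7 control replicate 4 and at 21450 to 27850 in the other Setd7 libraries. Susd2 stood at 1257 in GFP defeat replicate 2 and at 892.9 to 1007 in the other GFP libraries. The mean of the p53 targets was 8.703 in Setd7 control replicate 3, with 8.803 to 8.822 in the other Setd7 libraries. The mean of the Hippo list was 9.546 in GFP defeat replicate 4, with 9.264 to 9.369 in the other GFP libraries.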

How the results depend on the processing

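The number of genes called by limma was 1 under most alternatives. It was 0 with robust fitting (Setd7 2.82, adjusted p = 0.21 by limma), 0 without the 3 libraries low in Th (2.82, 0.212), 0 without the 3 high in Tcf7l2 (2.87, 0.209), 0 in libraries without defeat only (2.61, 0.629), 0 in males only (2.40, 0.960), 3 in defeated libraries only and 16 with DESeq2. In the 13 fits leaving out 1 library each, 1 gene was called, with Setd7 between 2.67 and 3.11 and adjusted p between 3.81e-08 and 0.0344. Genes at an unadjusted p under 0.05 numbered 608 (3.42%) without the libraries low in Th and 673 (3.79%) with the dopamine list's mean as covariate, both fits with less power. They numbered 837 (4.71%) in males, and 1081 to 1867 (6.09 to 10.5%) with 1 library left out, the most without GFP control replicate 1.

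Genes without overlap numbered 15 to 34 higher and 17 to 40 lower with 1 library left out, as fewer libraries have to separate. They were 58 and 53 without the libraries low in Th and 80 and 101 without those high in Tcf7l2. Each of these leaves out 3 GFP libraries, so more genes separate in random order too. That number was not computed, so the rise is no sign of a clearer difference. The interaction with defeat called 0 to 14 genes with 1 library left out, 14 without Setd7 defeat replicate 2. The correlation between the differences without and after defeat was 0.0929 with no filter, −0.00408 without the libraries low in Th, and 0.0589 to 0.188 with 1 library left out. Oprk1 turned to −0.034 without the libraries low in Th and to −0.0232 with the dopamine covariate, and Per1 to 0.0207 in females; the cause was not tested. Of 3231 values of the other 101 named genes, 3211 kept direction and side, and 17 passed the threshold only under an alternative. All 101 were uncalled in the main fit, so keeping side means staying uncalled. Most were also picked from these same libraries, which favours a kept direction. The comparisons without the libraries high in Tcf7l2, and without Setd7 control replicate 4 and Setd7 defeat replicate 1, were in part chosen after the data were seen. No paired analysis was possible because every library has a number of its own. Of 1056 list medians under alternatives 10 moved beyond their spread between libraries, among them dopamine neurons (−0.01) and oligodendrocyte precursors (−0.03) without the libraries low in Th.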
